A study of Mus musculus with 18 samples.

Results

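Klf2, S1pr1, Cd69 and Cd44 are 4 genes whose products govern how maturing T cells leave the thymus and how activated or memory-type lymphocytes are recognised. They were taken by gene name from whole-genome arrays of mouse thymus cells, 4 of the 25589 genes on the array, with every probe that carried the name (8 probes in all, 1 for Cd69, 2 each for Klf2 and S1pr1 and 3 for Cd44). The array files list S1pr1 under its older name, Edg1. The genes were chosen with their values in these arrays known, so their levels and differences are given as a description, with no test. Tests were kept for the other genes of the pathway, fitted together with all genes. Those pathway lists were also chosen with earlier results of these data known, so the share of them that was called is a description as well.

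C57BL/6 mice had been injected with an antibody against DLL4, the Notch ligand that drives T-lineage commitment in the thymus, or with an isotype control antibody, and thymi were taken 2 weeks later. The groups were total thymocytes (3 anti-DLL4 samples and 4 isotype samples), DN cells sorted as CD4-CD8- (3 and 3) and DN1 cells sorted as CD4-CD8-CD44+CD25- (3 and 2), 1 array per sample and 18 arrays in all. The study's description names 3 isotype thymocyte samples, the labels give 4, and all 4 were used. It speaks of 4 animals per antibody, but no source ties a sample to an animal, so arrays of different populations may share animals and the spread within a group may be partly technical.

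KLF2 is a zinc-finger transcription factor that switches on S1pr1 in T cells. The S1pr1 protein is the receptor for sphingosine 1-phosphate (S1P), a lipid that is abundant in blood and scarce in tissue, and mature thymocytes follow this gradient out of the thymus. CD69 is a membrane protein induced by antigen-receptor or interferon signals that binds S1PR1 and takes it off the surface, so a cell that carries CD69 is held back. CD44 is a receptor for the matrix sugar hyaluronan. It marks the earliest thymocytes, is lost as they commit to the T lineage, and returns on effector and memory T cells, while B cells, NK cells and myeloid cells carry it throughout. CD44 was itself part of the gate that defined DN1 cells, so the level of Cd44 in DN1 cells was partly set by the sort.

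Each probe is a 60-base oligonucleotide, and the place of a probe along the transcript matters here because the probes of 1 gene did not give the same picture. The first 30 bases of the 5 probes that carried the differences, and of the upstream Klf2 probe for contrast, are shown because the levels of the 4 genes rest chiefly on them (5′ to 3′, on the strand of the transcript, as in the array files).
Klf2, downstream probe: tgtatataagactatgaccgattgtatttc
Klf2, upstream probe: acacgccgccgctcagccccgacggccccc
S1pr1, downstream probe: aagatgaaaatgtgttccttttttgtcaca
Cd69, only probe: ttttgtcaattgttctccaccaaagaataa
Cd44, most downstream probe: gccaattgcttaggtatgtacaatgagttt
Cd44, brightest probe: cactgggatcttatcatcagataagcaggt

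By the files' own coordinates, which are those of the mm8 mouse build, the downstream Klf2 probe lies at chr8:75250227-75250286 on the plus strand. The upstream Klf2 probe, at chr8:75248851-75248910, starts 1376 bases before it and is GC-rich (78.3% G or C against 43.3% for the downstream probe). The S1pr1 probes lie on the minus strand at chr3:115703106-115703165 (35% G or C) and, 941 bases upstream, at chr3:115704047-115704106 (53.3%). The Cd69 probe lies at chr6:129233372-129233431 on the minus strand. The Cd44 probes lie on the minus strand at chr2:102612349-102612408, at chr2:102613589-102613648 (1240 bases upstream) and at chr2:102635102-102635161 (22753 bases upstream). An annotation of that build was not used here, so exon and UTR positions of the probes are not given.

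A level is the log2 of a spot's background-subtracted Cy3 signal minus the log2 of the array's 75th percentile, so 0 means as bright as that percentile. Levels of different probes are not comparable. That percentile, the measure of array strength, ran from 442.8 to 4295.4 on anti-DLL4 thymocyte arrays against 524 to 2468.1 on isotype arrays, from 741.3 to 1076.8 against 260.2 to 675.5 on DN arrays, and from 977.7 to 3641.7 against 1831.7 to 2643.1 on DN1 arrays. All anti-DLL4 DN arrays were thus stronger than all isotype DN arrays, and the part of array strength in the DN values below was not tested. Between 59.9% and 84% of spots were well above background. All 8 probes were well above background on all 18 arrays, except the most downstream Cd44 probe on isotype DN replicate 1. The sort label was checked by Cd8a, a chain of the CD8 receptor: its level was -1.46 to 1.40 in anti-DLL4 DN cells, 2.22 to 3.79 in isotype DN cells and 6.33 to 7.84 in isotype thymocytes. In DN1 cells it was -1.58 to 2.71 with anti-DLL4 and 3.60 to 4.59 with the isotype antibody. The level of Cd4 was -4.28 to -3.53 in anti-DLL4 DN cells, -3.29 to -0.75 in isotype DN cells and -3.34 to -2.43 in isotype thymocytes. Isotype DN cells were thus not below isotype thymocytes by Cd4, but that probe was below the 75th percentile in each of these groups and is a weak check. Cd8b1, the other chain, was at 6.82 to 7.14 in isotype DN cells, 3.64 to 4.09 in anti-DLL4 DN cells and 7.65 to 9.95 in isotype thymocytes. Isotype DN cells were below isotype thymocytes by Cd8b1, yet RNA of a CD8 chain was present in cells sorted as CD8-negative. Il2ra, the gene of CD25, was at 0.02 to 0.49 in anti-DLL4 DN1 cells and -2.60 to -0.30 in isotype DN1 cells, against 0.20 to 1.97 in isotype DN cells.

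Klf2, by its downstream and brighter probe, stood at a similar height in 4 of the 6 groups, lower in isotype thymocytes and lowest in isotype DN cells. In thymocytes its level was 5.97, 6.5 and 6.41 with anti-DLL4, against 4.10, 5.80, 4.53 and 4.68 with the isotype antibody. The groups did not overlap, although isotype replicate 2 lay just below the lowest anti-DLL4 array. Anti-DLL4 DN cells gave 6.45, 6.99 and 6.56, against 1.96, 2.65 and 3.59 with the isotype antibody, a wide gap with no overlap. Anti-DLL4 DN1 cells gave 5.44, 6.41 and 6.36, against 5.91 and 5.83 with the isotype antibody, and there the isotype values lay inside the anti-DLL4 range. The difference, anti-DLL4 minus isotype, was 1.51 ± 0.51 log2 units for thymocytes, 3.93 ± 0.55 for DN cells (15.3-fold) and 0.20 ± 0.61 for DN1 cells (SE of a model of all 18 arrays).

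S1pr1, the exit receptor itself, followed with a smaller span. In thymocytes the downstream probe gave 3.78, 3.09 and 4.01 with anti-DLL4, against 3.00, 2.54, 2.42 and 2.66 with the isotype antibody. The 2 groups met closely, anti-DLL4 replicate 2 lying just above isotype replicate 1. In DN cells it gave 2.84, 2.39 and 2.80 with anti-DLL4, against 0.60, -0.59 and 0.21 with the isotype antibody, so isotype DN cells stood well below each of the other groups. In DN1 cells it gave 2.83, 2.99 and 3.23 with anti-DLL4, against 2.86 and 2.83 with the isotype antibody, values that overlap. The differences were 0.97 ± 0.42 for thymocytes, 2.60 ± 0.45 for DN cells (6.08-fold) and 0.17 ± 0.50 for DN1 cells.

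Cd69, whose product opposes S1PR1 at the cell surface, was higher in the same places. In thymocytes its level was 4.58, 3.97 and 3.53 with anti-DLL4, against 3.35, 2.73, 2.49 and 2.66 with the isotype antibody, with no overlap but a narrow gap. Anti-DLL4 DN cells had 5.88, 5.08 and 6.25, against 2.19, 2.59 and 3.21 with the isotype antibody, again without overlap. Anti-DLL4 DN1 cells had 6.25, 5.37 and 5.98, against 5.43 and 4.67 with the isotype antibody, where isotype replicate 1 lay above the lowest anti-DLL4 array. The differences were 1.22 ± 0.48, 3.07 ± 0.51 (8.42-fold in DN cells) and 0.82 ± 0.57. S1pr1 and the gene of the protein that takes S1PR1 off the surface were therefore both higher in anti-DLL4 thymocytes and DN cells, by the measure of RNA alone.

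Cd44, by its brightest probe, was the member with the widest treatment difference in total thymocytes. Its level there was 2.72, 2.28 and 3.32 with anti-DLL4, against 0.43, -0.14, -0.21 and 0.50 with the isotype antibody. Even the lowest anti-DLL4 thymocyte array stood far above the highest isotype one. Anti-DLL4 DN cells read 1.66, 2.09 and 1.95, against 0.83, 0.45 and -0.22 with the isotype antibody, without overlap. Anti-DLL4 DN1 cells, sorted on CD44 like their controls, read 1.59, 2.22 and 2.34, against 3.07 and 2.40 with the isotype antibody. Here every anti-DLL4 array was below both isotype arrays, the nearest by a small step. The differences were 2.63 ± 0.45 for thymocytes (6.19-fold), 1.55 ± 0.48 for DN cells and -0.68 ± 0.53 for DN1 cells.

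**Figure D1:**
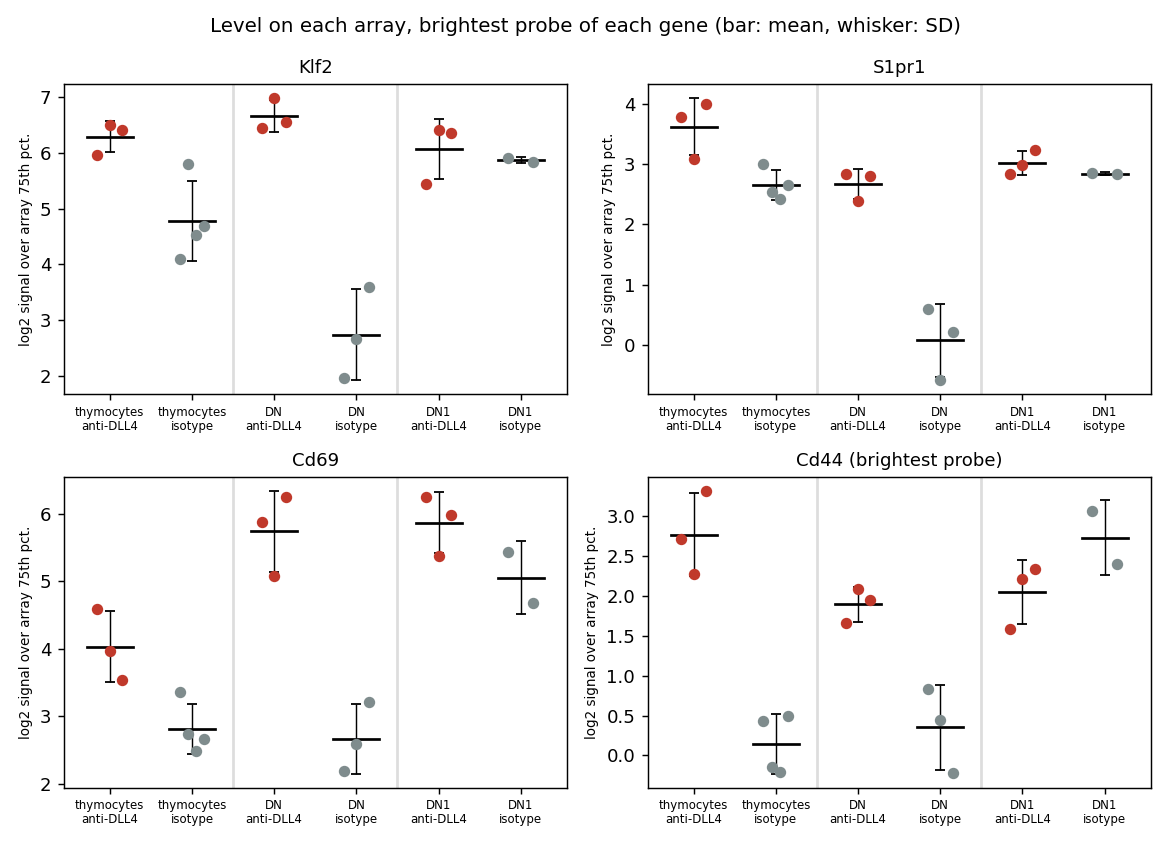
Level on each array (log2 signal over the array's 75th percentile, y axis) for the brightest probe of Klf2, S1pr1, Cd69 and Cd44 in the 6 groups, with anti-DLL4 in red left of isotype in grey. Bars are group means and whiskers the SD, with 3 anti-DLL4 arrays in each population and 4, 3 and 2 isotype arrays in thymocytes, DN and DN1 cells. Isotype DN cells are the lowest group for Klf2, S1pr1 and Cd69, and in DN1 cells the treated and isotype arrays lie close together.

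All 4 brightest probes were thus higher without overlap in thymocytes and in DN cells. Over all genes tested, 5.06% were higher without overlap in thymocytes and 9.67% in DN cells, and since the genes were chosen from these contrasts nothing is read from that. Levels of all genes were also shifted on this scale: the median over all tested genes was -0.47 log2 units for thymocytes, -0.68 for DN and -0.01 for DN1 cells. Relative to that median, Klf2 was higher by 1.99, 4.61 and 0.21 in thymocytes, DN and DN1 cells. S1pr1 was higher by 1.45, 3.28 and 0.18, and Cd69 by 1.69, 3.75 and 0.83. Cd44 stood at 3.1, 2.22 and -0.68. Relative differences are used from here on unless a value is called a level. Calls and adjusted p values, however, belong to the unshifted differences, so the median shift was part of each value tested.

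Ordered by mean level, Klf2 ran from anti-DLL4 DN cells (6.67 ± 0.29, SD) through anti-DLL4 thymocytes (6.29 ± 0.28), anti-DLL4 DN1 cells (6.07 ± 0.54) and isotype DN1 cells (5.87 ± 0.05) to isotype thymocytes (4.78 ± 0.72) and isotype DN cells (2.73 ± 0.82). The first 4 of these overlapped with their neighbours, and only the last 2 steps were free of overlap. For S1pr1 the order was anti-DLL4 thymocytes (3.63 ± 0.48), anti-DLL4 DN1 (3.01 ± 0.20), isotype DN1 (2.84 ± 0.02), anti-DLL4 DN (2.68 ± 0.25) and isotype thymocytes (2.66 ± 0.25), all overlapping their neighbours, with isotype DN cells apart at 0.07 ± 0.60. For Cd69 the upper 3 groups, anti-DLL4 DN1 (5.87 ± 0.45), anti-DLL4 DN (5.74 ± 0.60) and isotype DN1 cells (5.05 ± 0.54), overlapped. Below them Cd69 stood at 4.03 ± 0.53 in anti-DLL4 thymocytes, clear of both neighbours in the order, and then at 2.81 ± 0.38 in isotype thymocytes and 2.66 ± 0.51 in isotype DN cells, which overlapped. For Cd44 the order was anti-DLL4 thymocytes (2.78 ± 0.53) and isotype DN1 cells (2.73 ± 0.47), then anti-DLL4 DN1 (2.05 ± 0.41) and anti-DLL4 DN cells (1.90 ± 0.22), then isotype DN cells (0.35 ± 0.53) and isotype thymocytes (0.15 ± 0.37). Each of these Cd44 pairs overlapped within itself. The lowest anti-DLL4 thymocyte array (2.28) also lay below the highest anti-DLL4 DN1 array (2.34), so of the 3 pairs only the last was clear of the others.

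The isotype arrays show where the genes stood without DLL4 blockade. Isotype DN cells, against isotype thymocytes, stood at -2.41 ± 0.51 log2 units for Klf2 and -2.95 ± 0.42 for S1pr1, both without overlap of levels (as were 7.07% of all genes in that direction), but at -0.51 ± 0.48 for Cd69 and -0.15 ± 0.45 for Cd44. The median over all genes was 0.36 there, and before it was taken off Cd44 stood at 0.21. Isotype DN1 cells, which are a part of DN cells, stood above isotype DN cells for all 4 genes, by 3.91 ± 0.61 for Klf2, 3.55 ± 0.50 for S1pr1, 3.16 ± 0.57 for Cd69 and 3.16 ± 0.53 for Cd44, each without overlap of levels (as were 11.5% of all genes in that direction). These comparisons share their isotype DN arrays with the treatment comparison in DN cells, so the values stand side by side and are not independent. Both isotype DN1 arrays were also stronger than all isotype DN arrays, with a 75th percentile of 1831.7 and 2643.1 against 260.2 to 675.5. The part of array strength in that comparison was not tested. Taking the treatment differences against one another, Klf2 was 2.76 log2 units higher in DN cells than in thymocytes relative to all genes, S1pr1 1.97 and Cd69 2.20, whereas Cd44 stood at -0.74. In DN1 cells against DN cells the 4 genes stood at -4.38, -3.08, -2.90 and -2.87.

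**Figure D2:**
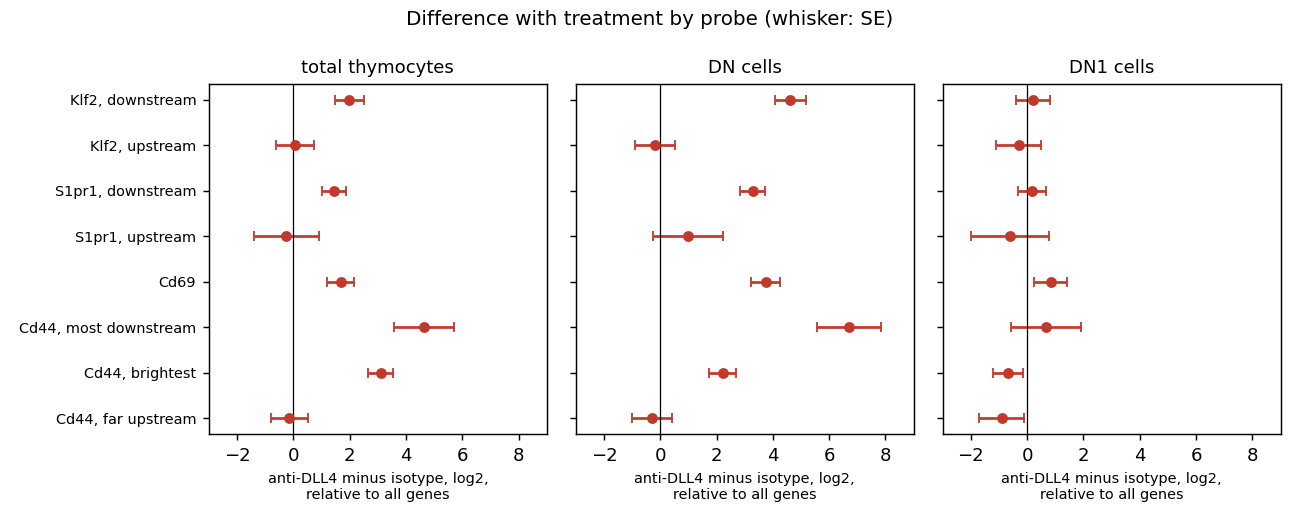
Difference with treatment (anti-DLL4 minus isotype, log2, relative to the median over all genes tested) for each of the 8 probes in total thymocytes, DN and DN1 cells. Points are estimates of the 18-array model and whiskers 1 SE. The downstream probes of Klf2 and S1pr1 lie right of 0 in thymocytes and DN cells while the upstream Klf2 probe lies within 1 SE of 0 and the upstream S1pr1 probe has the longest whiskers, and the Cd44 probe farthest upstream lies at or left of 0 in all panels.

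The probes of 1 gene did not all move together. The upstream Klf2 probe stood at 0.07 ± 0.67 for thymocytes, -0.19 ± 0.72 for DN cells and -0.30 ± 0.80 for DN1 cells, and over the 18 arrays its level correlated at -0.50 with that of the downstream probe (a description, since the arrays share their groups). In DN cells its level was -0.46, 0.02 and 0.09 with anti-DLL4, against 1.04, 0.90 and 0.29 with the isotype antibody, so on the unshifted scale it was lower without overlap, as were 23.0% of all genes there, while the downstream probe was higher. The upstream S1pr1 probe was dim, with signals of 15.9 to 168 in anti-DLL4 thymocytes against 13.4, 21.4 and 26.1 in isotype thymocytes, apart from 4150 on isotype thymocyte replicate 4. That 1 array weighed on both the thymocyte difference of -0.25 and its SE of 1.16. On slides 1, 2 and 4, which held thymocyte arrays of both antibodies but not that array, the relative difference was 1.27, 1.93 and 1.2. Unshifted, the upstream probe differed by -0.07, 1.06 and 1.57 on those slides, and the downstream one by 0.78, 0.55 and 1.59. On slide 1 the upstream probe was thus higher only relative to all genes, whose median there was -1.33. In DN cells the difference of the upstream probe was 0.98 ± 1.24.

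For Cd44 the most downstream probe had larger differences than the brightest one. Its level was 2.80, 1.85 and -0.18 in anti-DLL4 thymocytes, against -4.66, -1.72, -3.51 and -0.85 in isotype thymocytes. Anti-DLL4 DN cells were at 2.27, 1.19 and 1.68, against -6.94, -3.99 and -2.02 with the isotype antibody, the lowest of these not well above background. The groups did not overlap in either population, and the differences were 4.65 ± 1.06 and 6.71 ± 1.13. In DN1 cells this probe was higher with anti-DLL4, at 1.99, 1.75 and 1.73 against 1.00 and 1.33, where the brightest probe was lower. Of all genes tested in DN1 cells 8.68% were higher and 8.94% lower without overlap, so the 2 Cd44 probes do not settle a direction there. The Cd44 probe farthest upstream had signals of 9.61 to 107 on all arrays, and its differences were -0.14 ± 0.66, -0.30 ± 0.71 and -0.91 ± 0.79 in thymocytes, DN and DN1 cells. RNA had been amplified in 2 rounds before hybridisation, per the labels, and the part of a probe's place along the transcript in these differences was not tested.

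**Figure D3:**
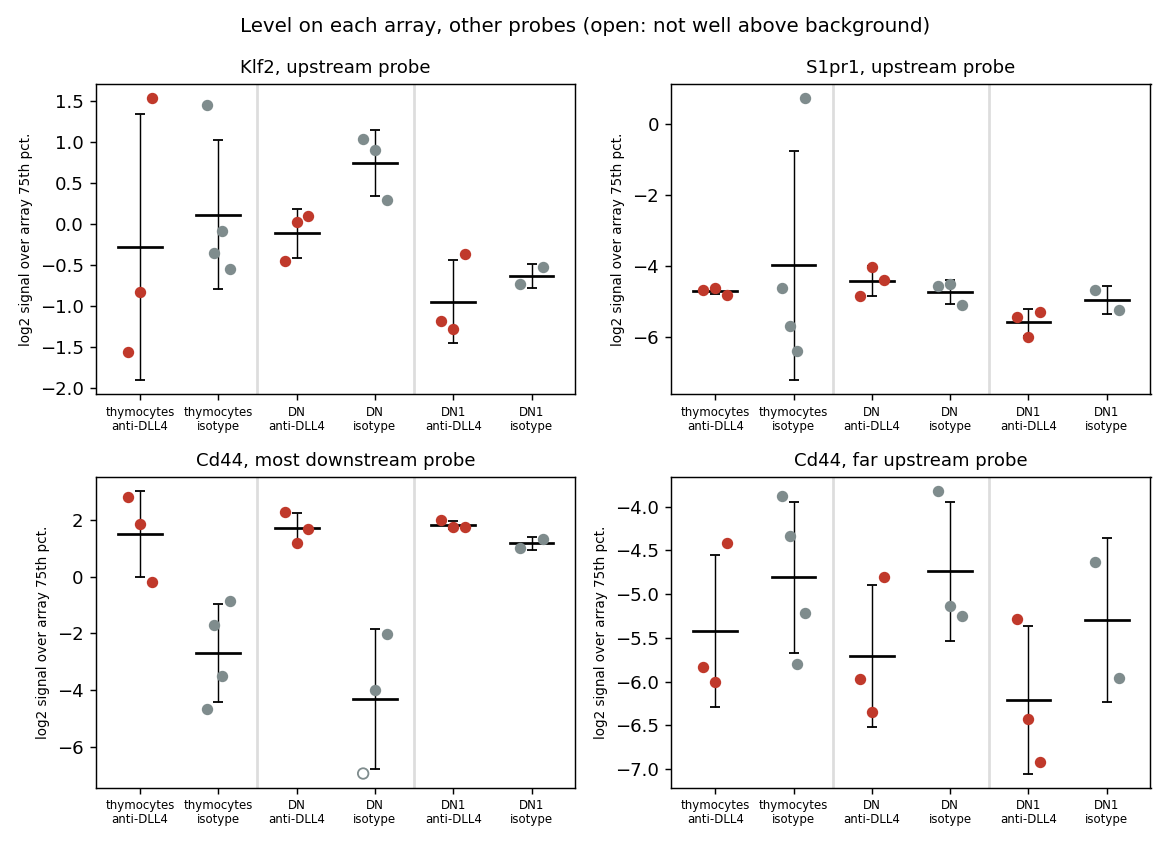
Level on each array (log2 signal over the array's 75th percentile, y axis) for the 4 other probes of Klf2, S1pr1 and Cd44 in the 6 groups, anti-DLL4 in red left of isotype in grey, with group means and SD. The open point is the 1 value not well above background. The upstream S1pr1 probe has a single high array among isotype thymocytes (0.75), and the most downstream Cd44 probe separates anti-DLL4 from isotype arrays in thymocytes and DN cells.

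Slides held both antibodies for some pairs of arrays, which allows the differences to be read within a slide. On the slides numbered 1, 2 and 4, with 1 thymocyte array of each antibody, the relative difference of Klf2 was 3.2, 1.57 and 1.5 and that of S1pr1 2.11, 1.42 and 1.22. Cd69 stood at 2.56, 2.11 and 0.66 and Cd44 at 3.63, 3.28 and 3.15. All 4 genes were thus higher with anti-DLL4 on each of these slides. On slide 3, with 1 DN array of each antibody, they stood at 5.88, 2.65, 3.74 and 2.11 for Klf2, S1pr1, Cd69 and Cd44, though that slide pairs the strongest DN array with the weakest. In DN1 cells, slides 3 and 5 gave 0.80 and 0.68 for Klf2, 0.43 and 0.54 for S1pr1, 0.25 and 1.46 for Cd69, and -0.54 and 0.09 for Cd44. Without anti-DLL4 DN1 replicate 1 the DN1 differences were 0.72 for Klf2 and -0.24 for Cd44. When the 2 weakest isotype DN arrays, replicates 1 and 2, were left out, the DN differences were 3.43 for Klf2, 2.82 for S1pr1, 2.88 for Cd69 and 2.48 for Cd44, with 1 isotype array remaining.

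The other genes of the pathway were taken from 5 lists of 93 genes, of which 91 were on the array. The lists were chosen with earlier results of these data known. Nothing is therefore read from their share of calls beside that of all genes, here or in the other comparisons. Each adjusted p tests the unshifted difference, which in thymocytes includes the median of -0.47 and in DN cells that of -0.68, and not the relative difference printed beside it. In thymocytes limma called 4 of the 88 that could be tested at a Benjamini-Hochberg adjusted p under 0.05, 2 higher and 2 lower (4.55%), against 1.51% of all 20918 genes (1.12% higher and 0.387% lower). The higher ones were Il7r, the receptor chain for the survival cytokine IL-7, with a relative difference of 2.69 ± 0.43 (limma adjusted p = 0.0194), and Ms4a4b, a membrane protein of mature T cells, with 3.37 ± 0.57 (adjusted p = 0.0209). Levels of Il7r averaged 5.45 ± 0.45 in anti-DLL4 and 3.23 ± 0.41 in isotype thymocytes (SD). Plxnd1, a guidance receptor of thymocytes, was lower at -1.48 ± 0.46 (adjusted p = 0.0475), and so was Hyal2, a hyaluronidase, at -1.84 ± 0.55 (adjusted p = 0.0475). The calls of Plxnd1 and Hyal2 lay at the edge and were kept in 3 and 5 of 18 fits that left out 1 array each, those of Il7r and Ms4a4b in 15 and 14. For Il7r the call ended when anti-DLL4 replicate 2, anti-DLL4 replicate 3 or isotype replicate 3 was left out, and for Ms4a4b also without isotype replicate 1. With the slide as a block Ms4a4b was the 1 call that stayed, where 216 of all 20918 genes were called higher and 46 lower.

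In DN cells 11 of 84 genes were called, 9 higher and 2 lower (13.1%), against 4.31% of all 20858 genes (2.74% higher and 1.56% lower). With the slide as a block 4 of these 11 calls stayed, those of Ccr7, Cxcr4, Egr2 and Slfn2. Of all 20858 genes that setting called 281 higher and 213 lower. Ccr7, the chemokine receptor that guides thymocytes to the medulla and lymphocytes to lymph nodes, rose by 4.77 ± 0.50 (limma adjusted p = 0.000345). Its level averaged 4.61 ± 0.63 with anti-DLL4 and 0.51 ± 0.07 with the isotype antibody, and its call was kept in all 18 fits without 1 array and under all 10 other settings. Cxcr4, the receptor for CXCL12, rose by 3.70 ± 0.51 (adjusted p = 0.00344), and Il7r by 2.77 ± 0.46 (adjusted p = 0.0179). Among maturation genes, Egr2, a transcription factor induced by antigen-receptor signals, rose by 4.48 ± 0.71 (adjusted p = 0.00653) and Slfn2, a quiescence factor of T cells, by 3.81 ± 0.56 (adjusted p = 0.0051). Ly6c1 and Ms4a4b, surface proteins of late thymocytes and mature T cells, rose by 3.71 and 3.03 (adjusted p = 0.00429 and 0.0424).

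On the CD44 list in DN cells, Msn, the linker moesin that ties CD44 to actin, rose by 3.68 ± 0.63 (limma adjusted p = 0.0135), and Cd74 by 3.67 ± 0.63 (adjusted p = 0.0138). CD74 pairs with CD44 as the receptor for the cytokine MIF and is also the invariant chain of MHC class II in B cells and dendritic cells. The genes that fell were Ccr9, a chemokine receptor of thymocytes and of plasmacytoid dendritic cells, at -2.70 ± 0.88 (adjusted p = 0.0424), and Themis, a signalling protein of developing T cells, at -2.26 ± 0.74 (adjusted p = 0.0356). The count of called genes was 5 to 7 without anti-DLL4 DN replicate 1 or 3 or isotype DN replicate 1 or 2. Of all 19154 to 20600 genes tested, those fits called 287 to 341 higher and 63 to 83 lower. Without isotype DN replicate 3 the count was 22, with 17 higher and 5 lower. Of all 20780 genes that fit called 1329 higher and 4486 lower. The calls of Cxcr4, Egr2, Slfn2 and Ly6c1 were also kept in all 18 fits without 1 array, those of Msn and Cd74 in 15, of Il7r and Themis in 14, and of Ms4a4b and Ccr9 in 8. Without isotype DN replicates 1 and 2 together, Ccr7 was the 1 gene of these lists called in DN cells, in a fit where the lone isotype DN array is assumed to vary like the other groups. Foxo1, which sets Klf2 and Il7r in T cells, was at 2.71 ± 0.59 without a call (adjusted p = 0.0613).

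Apart from S1pr1, which was not tested, the genes that make, break and sense S1P gave no call in any population. Of S1P supply and disposal 0 of 8, 7 and 8 tested genes were called in thymocytes, DN and DN1 cells. Of S1P receptors and migration signalling 0 of 18 genes were called in each. Over all genes 1.51%, 4.31% and 0.0956% were called, so nothing is read from 0 calls in lists this short. Relative to all genes, the medians of these lists were 0.97 and 0.52 for thymocytes, 1.47 and 1.29 for DN, and 0.02 and -0.11 for DN1 cells. Over the unshifted values they were 0.49 and 0.05 for thymocytes and 0.79 and 0.61 for DN cells. S1pr4, a further S1P receptor of lymphocytes, was at 3.40 ± 1.01 in thymocytes (limma adjusted p = 0.167). S1pr5, the exit receptor of NK cells, was not well above background on any isotype DN array, and its mean in anti-DLL4 DN cells was at least 7.69-fold higher than the detection bound there, without a call (adjusted p = 0.171). In DN1 cells 0 of 89 genes of the 5 lists were called, against 0.0956% of all 21957 genes, where 1029 of all genes had an unadjusted p under 0.05 and 21 were called. The median of the 5 lists was 0.54 for thymocytes, 1.03 for DN and -0.24 for DN1 cells.

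The difference of the treatment effect between populations was called for none of the pathway genes (0 of 90, 90 and 89), against 0.0224% of all genes for DN minus thymocytes, 0.119% for DN1 minus thymocytes and 0.212% for DN1 minus DN cells. By limma 1865, 1561 and 2775 of all genes had an unadjusted p under 0.05 there. A call in DN cells and none in DN1 cells is therefore no shown difference. In isotype cells, 5 of 89 pathway genes were lower in DN cells than in thymocytes (Ccr7, Plxnd1, Cd2, Cd5 and Satb1), against 0.892% of all genes. Another 6 of 89 were higher in DN1 than in DN cells (Ccr7, Il7r, Egr2, Slfn2, Ly6c1 and Msn), against 1.11% of all genes. All 11 of these calls were lost when isotype DN replicates 1 and 2 were left out, and 1 in each comparison stayed with the slide as a block.

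**Figure D4:**
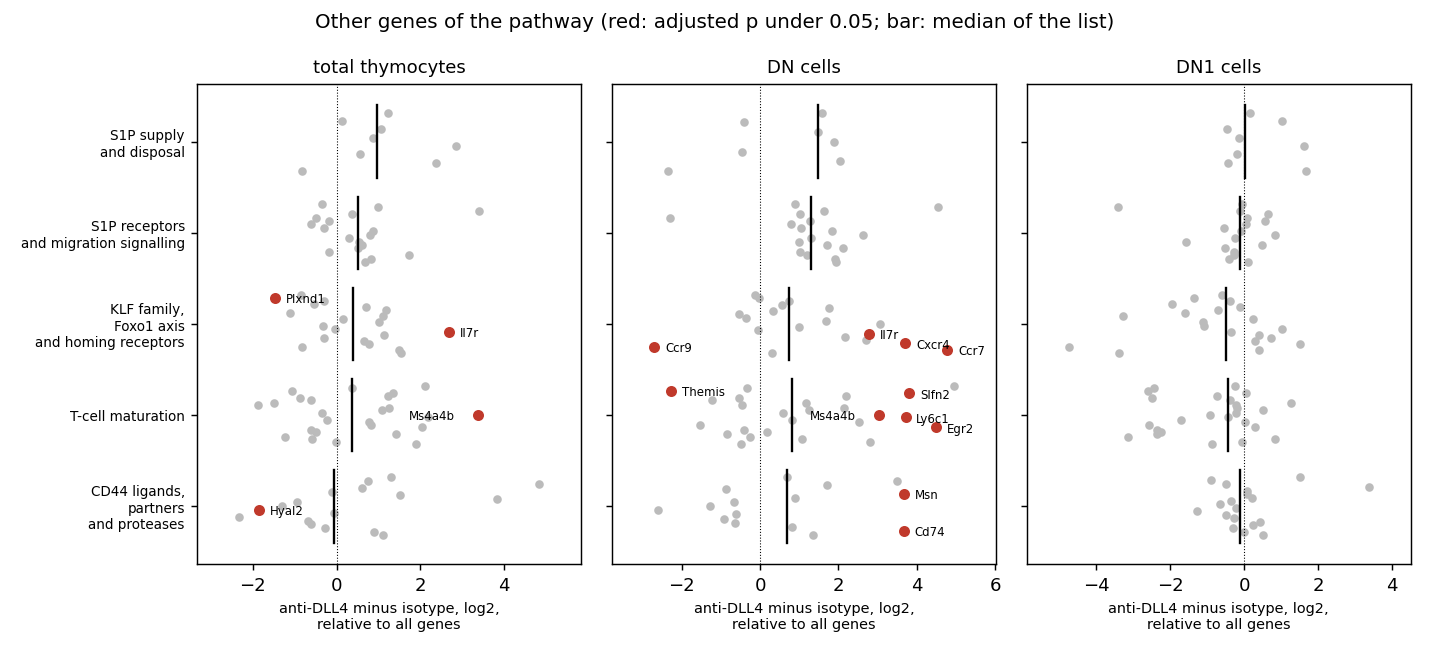
Difference with treatment (anti-DLL4 minus isotype, log2, relative to the median over all genes tested) for each tested gene of the 5 pathway lists in total thymocytes, DN and DN1 cells. Red points with names passed a limma adjusted p under 0.05 for the unshifted difference and grey points did not. The bar is the median of the list. Ccr7 has the highest difference among the 9 genes called higher in DN cells, and no gene is red in DN1 cells.

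Each of the 4 genes is also carried by cells other than thymocytes, and markers of some of those cells moved with the same contrasts. In an RNA measurement of bulk cells, fewer cells of a type and less RNA per cell cannot be told apart. Of all genes, 1.12% were called higher and 0.387% lower in thymocytes, 2.74% and 1.56% in DN cells, and 0.0956% in either direction in DN1 cells. With so few calls in DN1 cells, a list without a call there is not shown to be unchanged. The marker lists were also chosen with earlier results of these data known, so their counts are a description. Of 9 B-cell markers, 6 were called higher in anti-DLL4 thymocytes and 8 in anti-DLL4 DN cells, with 0 in DN1 cells. Their summed level, the log2 of the sum of signals over the 75th percentile, ran from 6.21 to 8.07 in anti-DLL4 and 4.45 to 5.20 in isotype thymocytes, from 8.94 to 9.28 and 5.10 to 5.39 for DN, and from 8.29 to 8.88 and 7.55 to 8.38 for DN1 cells. Pax5 was not well above background in any isotype thymocyte array.

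Of 9 NK-cell markers, 4 were called higher in thymocytes and 4 in DN cells. Their summed levels were 7.73 to 8.87 against 5.26 to 6.66 and 6.93 to 7.36 against 4.60 to 6.32. In DN1 cells, with 0 calls, they were lower with anti-DLL4, at 5.73 to 6.83 against 7.12 to 7.32. Of 7 markers of conventional dendritic cells, 1 and 3 were called higher, with summed levels of 5.99 to 6.24 against 4.47 to 5.44 in thymocytes and of 6.35 to 6.66 against 2.83 to 3.41 in DN cells. Monocyte and macrophage markers gave 1 and 3 higher calls of 6. In DN1 cells their summed level was 5.49 to 5.92 with anti-DLL4 and 6.66 to 7.13 with the isotype antibody, with 0 calls. Of 6 neutrophil markers 0 were called in any population. Of 6 markers of plasmacytoid dendritic cells, 1 was called higher in thymocytes, and 2 higher and 1 lower in DN cells. Of 5 fibroblast markers 1 was called lower in each of these populations. Of the 8 early T-cell markers, 3 were called lower in DN cells, where their summed level was 5.14 to 6.84 with anti-DLL4 and 7.97 to 8.44 with the isotype antibody, and 1, Kit, was called higher in thymocytes. Double-positive thymocyte markers had summed levels of 4.22 to 4.73 in anti-DLL4 and 7.03 to 7.54 in isotype DN cells, with 1 of 6 called lower. In DN1 cells no marker of either list was called, with summed levels of 2.65 to 5.34 in anti-DLL4 and 6.69 to 7.09 in isotype cells for double-positive markers, and of 4.16 to 5.41 and 6.52 to 7.13 for early T-cell markers. Endothelial cells, which carry S1PR1 and KLF2 at high levels, gave 0 calls of 7 tested markers in each population, and their summed level was lower in anti-DLL4 DN cells (1.96 to 2.95) than in isotype DN cells (4.62 to 4.98). Tie1 was not well above background on any DN array, and Emcn on none of the anti-DLL4 DN arrays. The part of these cell types in the levels of Klf2, S1pr1, Cd69 and Cd44 was not tested.

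Over the 18 arrays the levels of the 4 genes varied together to a limited degree. By Pearson's r on the brightest probes, Klf2 correlated at 0.80 with S1pr1, 0.71 with Cd69 and 0.67 with Cd44. Cd44 correlated at 0.62 with S1pr1 and 0.65 with Cd69, and S1pr1 at 0.48 with Cd69. Once group means were taken out, Klf2 correlated at -0.25 with S1pr1, -0.12 with Cd69 and -0.26 with Cd44. On that footing S1pr1 correlated at 0.15 with Cd69 and 0.46 with Cd44, and Cd69 at -0.28 with Cd44. Correlations with array strength were 0.55 for Klf2 and S1pr1 and 0.39 for Cd69 and Cd44. These r values describe arrays that share groups, slides and possibly animals, and carry no p.

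Among 19519 genes whose spots were well above background on 9 arrays or more, the 3 most like Klf2 included Lpcat2 (r = 0.96) and Stk10 (0.95). Those most like S1pr1 were Sulf2 (0.92), Skil (0.91) and Ccr7 (0.91), the last with r = -0.09 once group means were taken out. Cd69 was most like a probe named by a transcript identifier alone, Tmem243 and Lyn (0.96 each), where Lyn is a Src-family kinase of B cells and myeloid cells. Cd44 was most like Ccr2, a monocyte chemokine receptor, Ly86, a partner of a B-cell and myeloid surface receptor, and Tlr3, a sensor of double-stranded RNA (0.92 each). Within groups the r of these genes with their member ran from -0.09 (Ccr7) to 0.75 (Lpcat2).

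The promoter is shown for Klf2 because, among the brightest probes of the 4 genes, its group means spanned the widest range. They ran from 6.67 in anti-DLL4 to 2.73 in isotype DN cells. The most downstream Cd44 probe spanned more, from 1.82 in anti-DLL4 DN1 to -4.32 in isotype DN cells. RefSeq promoter windows were at hand for Klf2 and Cd44. The 250 bases before the Klf2 start, chr8:72318812-72319061 on the plus strand of GRCm38.p6, hold 1 match to the MEF2 consensus, which reads the same on both strands. The match begins 118 bases before the start and is in capitals.
Klf2, promoter: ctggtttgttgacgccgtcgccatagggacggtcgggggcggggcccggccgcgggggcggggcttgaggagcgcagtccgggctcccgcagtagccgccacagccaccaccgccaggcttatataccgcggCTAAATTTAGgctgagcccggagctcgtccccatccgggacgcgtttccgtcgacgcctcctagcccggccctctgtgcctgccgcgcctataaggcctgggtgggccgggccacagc
MEF2 factors acting at such a site are known to switch on Klf2. The consensus was matched in 183 of 32851 RefSeq promoter windows of 300 bases (0.557%), and not in that of Cd44. The match is a description of the letters, and the arrays did not measure binding.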

How the data were processed

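RNA of 18 mouse thymus samples was amplified in 2 rounds, labelled with Cy3 and hybridised to 1-colour Agilent arrays, per the labels' protocols. The values deposited for each spot are Cy3 intensity, from which the scanner software had taken background and spatial trend array by array, with no scaling across arrays, per the file headers. That software was Feature Extraction 9.5.3.1, written as 9.5 in the submitters' processing notes. Deposited flags of 0 or 1 mark outlier spots, saturation and signal well above background. A deposited table of the series holds a linear ratio per probe and array. Its scale and direction follow the scanner values, since after centring each probe 69.7% to 70.7% of its log2 values lay within 0.05 of them, while what the authors divided by is not stated and stays unknown. Its column medians ran from 0.638 to 1.423.

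From the intensities, log2 of the processed signal minus log2 of the array's own 75th percentile (control spots excluded) was taken. Control and outlier spots were dropped and saturated ones, no more than 1 on an array, retained. Repeated spots of a probe were averaged. Probes were named through the RefSeq table of GRCm38.p6 (26215 probes by accession, 7270 by current and 3073 by older symbol, 6868 by the file's name). A gene was given by its brightest probe. Genes well above background on at least 2 arrays entered 1 model of the 6 group means in limma 3.58.1 (R 4.3.3, with the data.table package, version 1.17.8), two-sided, with Benjamini-Hochberg adjustment over all genes tested in a comparison. The steps were tested on simulated data.

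The 4 genes, the 5 pathway lists and the marker lists were chosen with earlier results of these data known. Named were all probes of the 4 genes, called genes of each pathway list, and for each of the 4 genes the 3 nearest by correlation, of which 1 is not reported here. Foxo1, S1pr4, S1pr5 and single markers were named after their values were seen. Alternatives covered scaling, background, probe choice, filters, slide and replicate blocks, the deposited table and leaving out arrays. The number of arrays limits the precision.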

Additional observations from a re-analysis of the deposited data

Results flagged for a closer look

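Cd44, by its brightest probe, lay on opposite sides of the isotype arrays in different populations. In DN1 cells all 3 anti-DLL4 arrays lay below both isotype arrays, while in thymocytes and in DN cells all anti-DLL4 arrays lay above all isotype arrays. The DN1 side rests on a difference of -0.68 ± 0.53, where 8.94% of all genes were lower without overlap, and slide 5 alone gave a relative difference of 0.09. Relative to all genes, the treatment difference in DN1 cells minus that in thymocytes was -3.77 log2 units, and that in DN1 minus that in DN cells was -2.87. These differences were not tested, since Cd44 was chosen with its values known. DN1 cells were sorted on CD44, and the most downstream Cd44 probe was higher, not lower, in anti-DLL4 DN1 cells.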

How the results depend on the processing

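In thymocytes and DN cells the differences of Klf2, S1pr1, Cd69 and Cd44 stayed above 0 under all 10 other settings and in all 18 fits without 1 array. In thymocytes they ran, leaving out 1 array, from 1.63 to 2.29 for Klf2, 1.17 to 1.62 for S1pr1, 1.21 to 2.22 for Cd69 and 2.92 to 3.32 for Cd44. For DN cells they ran from 4.09 to 5.11, 2.75 to 3.42, 3.39 to 4.09 and 2.00 to 2.33, and for DN1 cells from -0.09 to 0.72, -0.01 to 0.47, 0.52 to 1.17 and -0.94 to -0.24. With the mean of all probes Klf2 was at 0.98 in thymocytes and 2.39 in DN cells, S1pr1 at 0.55, 2.31 and -0.22 (DN1 cells), and Cd44 at 2.49 and 3.06. With quantile normalization the DN values were 3.80, 2.65, 2.97 and 1.51 for Klf2, S1pr1, Cd69 and Cd44. With normexp background they were 5.38 for Klf2, 4.47 for Cd69 and 2.64 for Cd44 in DN cells, and 0.77, 0.99 and 2.41 for S1pr1, Cd69 and Cd44 in thymocytes. With the slide as a block Klf2 in DN cells was at 5.33, and without isotype DN replicates 1 and 2 Klf2 was at 3.43 and Cd69 at 2.88. Why these settings moved the values was not tested.

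Deviations of samples with the same replicate number correlated at -0.27, 0.08 and -0.13 for thymocyte and -0.19, -0.02 and -0.05 for DN pairs. For DN1 pairs the values were 0.24 and -0.06. They show no pairing by number, but with so few arrays per group they cannot exclude it. In thymocytes replicates 1, 2 and 3 of both antibodies shared slides 1, 2 and 4. With the replicate block 0 pathway genes were called in thymocytes, 1 in DN cells and 0 in either isotype comparison. Of all genes that fit called 69 higher and 11 lower in thymocytes, 190 and 130 in DN cells and 0 in either isotype comparison. S1pr1 in DN1 cells was at -0.01 with the replicate block. In thymocytes 2 pathway genes were called without the filter on dim genes and 1 with the slide as a block. Of all genes those settings called 211 and 216 higher and 52 and 46 lower. In DN cells 4 were called with the slide as a block and 1 without isotype DN replicates 1 and 2. The slide block called 281 of all 20858 genes higher and 213 lower in DN cells. In DN1 cells 1 pathway gene was called with the mean of all probes, where 8 of all 22015 genes were higher and 17 lower. The differences of effects gave 3 (DN1 minus thymocytes) and 2 (DN1 minus DN) with quantile normalization and 1 each with the mean of all probes. Of all genes, quantile normalization called 7 higher and 40 lower for DN1 minus thymocytes, and 13 and 78 for DN1 minus DN. The mean of all probes called 5 and 22, and 16 and 43. Isotype DN against isotype thymocytes gave 3 with the percentile over probes well above background everywhere, 19 with normexp, 1 with the slide as a block and 0 without isotype DN replicates 1 and 2. Isotype DN1 against DN gave 10 with quantile normalization, 3 with normexp, 1 with the slide as a block and 0 without those 2 arrays. Leaving out 1 array gave 0 to 4 calls in thymocytes, 5 to 22 in DN cells, 0 in DN1 cells, 0 for DN minus thymocytes and for DN1 minus thymocytes, 0 to 5 for DN1 minus DN, 3 to 17 for isotype DN against thymocytes and 0 to 8 for isotype DN1 against DN. The 22, the 5 for DN1 minus DN and the 17 came without isotype DN replicate 3. Of all genes that fit called 1329 higher and 4486 lower in DN cells, and 519 and 185 for DN1 minus DN. For isotype DN against thymocytes it called 2149 higher and 743 lower of 21574 genes, where the 17 were 1 higher and 16 lower. With normexp 1141 of all 21633 genes were higher and 725 lower there, where the 19 were all lower. The percentile over probes well above background everywhere called 91 higher and 94 lower there, and the slide block 5 and 5. For isotype DN1 against DN, quantile normalization called 556 of all 21737 genes higher and 108 lower. Normexp called 103 and 2 in that comparison, and the slide block 107 and 22. Thymocyte calls were 0 without anti-DLL4 replicate 2 or isotype replicate 3. Of all genes those fits called 105 and 136 higher and 9 and 27 lower. DN calls were 5 without anti-DLL4 replicate 1 or 3 or isotype replicate 1, and 7 without isotype replicate 2. Isotype DN1 against DN gave 0 without either isotype DN1 replicate and 1 without isotype DN replicate 1 or 2.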
